A study of Mus musculus with 6 samples.

Results

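The 65 replication-dependent histone genes of the mouse were examined in colorectal tumors with and without epithelial Trp53. They were taken from the deposited table by their gene names, as every row named H1f1 to H1f6 or H2ac, H2bc, H3c or H4c followed by a number, which gave 65 of 54167 rows. Of these, 6 encode the linker histone H1, 18 encode H2A, 17 encode H2B, 12 encode H3 and 12 encode H4. RNA was sequenced from 6 tumors of different mice, 3 from Trp53fl/fl mice and 3 from VP mice, which carry Pvillin-Cre together with Trp53fl/fl. The labels give the strain of all 6 as C57BL/6J, and the methods describe 8-week-old males. Tumors were induced with the carcinogen azoxymethane (10 mg/kg) followed by 7-day cycles of 2.5% dextran sulfate sodium, which injures the colon lining, and tumors were collected on day 98. Both genotypes carry the floxed alleles, so they differ by Cre. Cre under the villin promoter acts in intestinal epithelium, so other cells of a VP tumor keep Trp53. Trp53 itself was at 124.94, 99.30 and 147.45 TPM in Trp53fl/fl tumors and at 38.45, 32.79 and 27.83 TPM in VP tumors (log2 fold change -1.87, standard error 0.18, limma adjusted p = 0.0207).

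Replication-dependent histones supply the protein that packs newly copied DNA, and their mRNAs accumulate in S phase and are destroyed at its end. Unlike other mRNAs, they normally end without a poly(A) tail. The end is instead formed a few bases after a conserved stem-loop, which is bound by the stem-loop binding protein Slbp. Some of these genes also give polyadenylated transcripts, for example in cells that have left the cell cycle. The libraries were made from RNA selected with oligo(dT), which captures poly(A) tails, so the values below do not measure the whole pool of histone mRNA. TPM are estimates of transcript abundance scaled for transcript length and to the same total in each tumor. Levels of different genes can thus be set side by side where their RNAs are captured alike, which need not hold between RNAs with and without tails.

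The stem-loop is the sequence that sets these genes apart, and it was searched in the annotated transcripts (GENCODE M21, GRCm38) as a 16-base element with a 6-base-pair stem and a 4-base loop. It was present in the annotated transcript of 43 of the 65 genes (66.2%), against 180 of 58728 other protein-coding transcripts (0.306%). The following lines give the element with up to 5 flanking bases, stem and loop in capitals, for the abundant genes and for those with rarer forms. H1f2, H2ac18 and H2bc8 have the most frequent form, found in 24 genes of the H1, H2A, H2B and H3 types. H2bc3 has the form found in 6 genes, and the forms of H2ac20 and H3c8 were each found in that gene alone. H4c18, H4c9, H4c1 and H4c2 have the 4 forms of H4 genes, found in 6, 2, 1 and 2 genes.
H1f2: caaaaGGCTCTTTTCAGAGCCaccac
H2ac18: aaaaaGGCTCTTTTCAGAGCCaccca
H2bc8: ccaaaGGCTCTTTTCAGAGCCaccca
H2bc3: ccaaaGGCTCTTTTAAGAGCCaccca
H2ac20: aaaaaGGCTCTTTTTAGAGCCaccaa
H3c8: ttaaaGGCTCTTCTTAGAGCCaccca
H4c18: ctaaaGGCCCTTTTCAGGGCCatcca
H4c9: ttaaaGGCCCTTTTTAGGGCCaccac
H4c1: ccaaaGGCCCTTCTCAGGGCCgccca
H4c2: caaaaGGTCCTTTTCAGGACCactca

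All 11 H4 genes with a stem-loop had stem letters that no gene of the other types had. Among the 43 genes with the element, 23 have annotated transcripts that end at most 100 bases after it, and 20 have transcripts that run further. The 23 ends lie from 3 bases (H4c17 and H2ac24) to 74 bases (H3c3) after it, so this class is wider than the processed end. The most abundant of the first kind, H2ac18 and H2ac19, end 35 bases after it. H1f2 runs on for 840 bases and has a poly(A) signal (AATAAA or ATTAAA) in its last 50 bases. Such a signal was found in 13 of the 65 genes (20.0%) and in 50.2% of other protein-coding transcripts. The annotated transcript of H2bc4, the most abundant gene of all 65, has 2 exons and 1156 bases and no stem-loop match. For the other genes without a match, including H4c12 with 312 annotated bases, the search says only that these letters are not in the annotated transcript.

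Levels were concentrated in few genes. A mean of at least 10 TPM over the 6 tumors was reached by 8 genes, and 51 of the 65 had a mean under 5 TPM. H2bc4, H1f2, H2ac19 and H2ac18 had means of at least 50 TPM and made up 65.3% to 72.8% of the summed TPM of all 65 genes, depending on the tumor. H2bc4 ranked 757 among all genes of the table by mean TPM, and H1f2 ranked 1111. Of these 8 abundant genes, 5 end near the stem-loop, 2 run past it and 1 has no match. Over all genes, the median level was 3.06 TPM for the 23 that end near the stem-loop, 1.12 TPM for the 20 that run past it and 0.866 TPM for the 22 without a match.

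**Figure D1:**
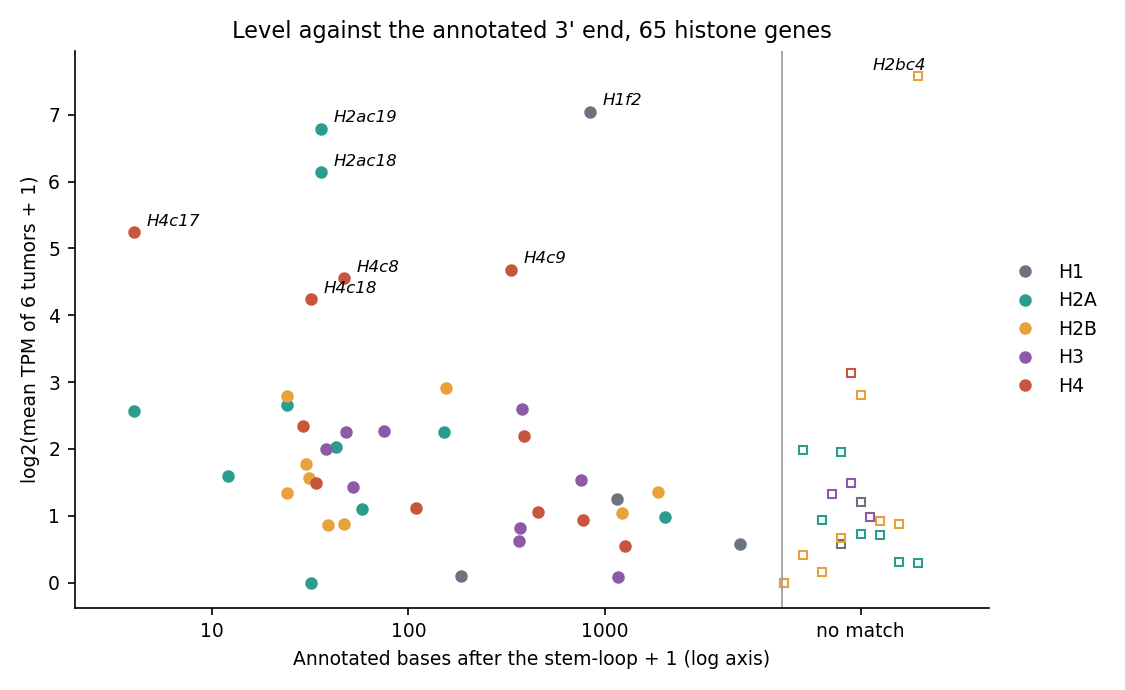
Level of each of the 65 histone genes as log2(mean TPM of 6 tumors + 1) against the annotated bases after the stem-loop plus 1 on a log axis, colored by histone type. Open squares to the right of the line are the 22 genes without a stem-loop match and are spread sideways for visibility only. H2bc4 stands highest there, H1f2 lies at 840 bases, and H2ac18 and H2ac19 lie at 35 bases.

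The filter of at least 1 TPM in at least 3 tumors was passed by 43 of the 65 genes, of which 22 reached 1 TPM in all 6 tumors. Of the 22 genes that did not pass, 12 reached 1 TPM in some tumor and 10 stayed under it in all. The highest of these were H2ac12, at 3.65 TPM in Trp53fl/fl replicate 1, H2bc24, at 3.30 TPM in Trp53fl/fl replicate 2, and H2ac14, at 2.95 TPM in Trp53fl/fl replicate 1. H2ac14 is annotated as an unprocessed pseudogene. The testis genes H2ac1 and H2bc1 were listed at 0 in all tumors, as was H2ac23, and the testis linker histone H1f6 did not exceed 0.20 TPM. Genes could pass through the tumors of 1 genotype, and 6 of the 43 had fewer than 2 VP tumors at 1 TPM while 1 had fewer than 2 Trp53fl/fl tumors there. Counts over the 43 are therefore descriptions of those that passed.

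**Figure D2:**
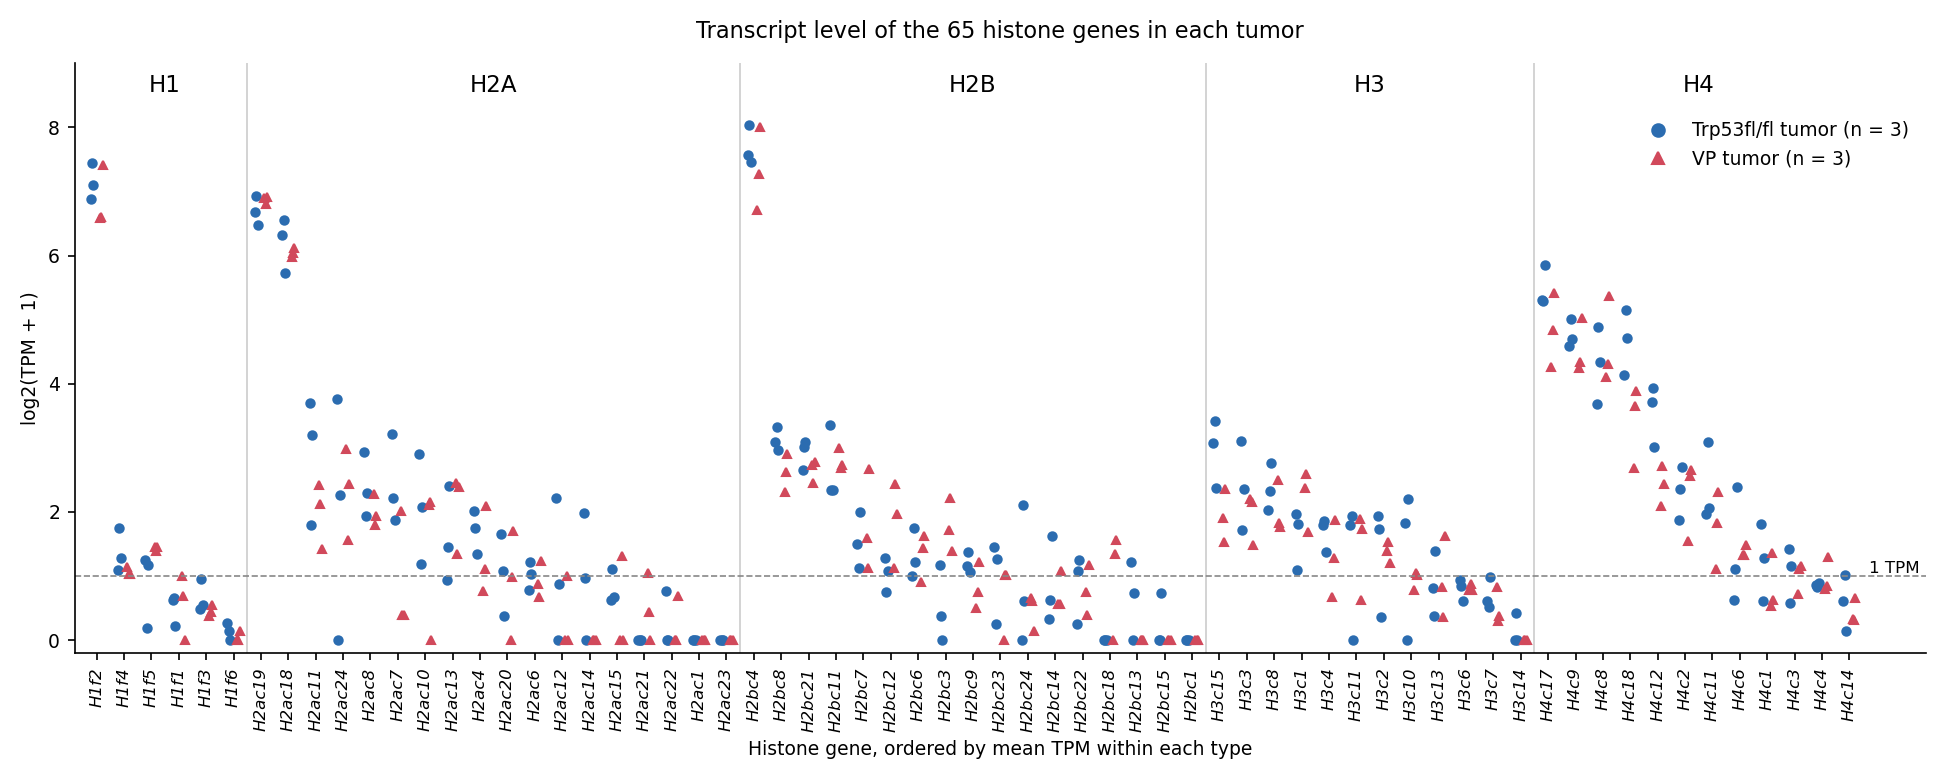
Each point is the log2(TPM + 1) of one histone gene in one tumor, Trp53fl/fl as blue circles and VP as red triangles, with genes ordered by mean TPM within the 5 types. The dashed line marks 1 TPM. H2bc4, H1f2, H2ac19 and H2ac18 stand above the others, and the genotypes overlap in most genes.

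The summed TPM of all 65 genes was 730, 893 and 691 in the Trp53fl/fl tumors and 528, 594 and 843 in the VP tumors. Of the VP tumors, 2 lay below every Trp53fl/fl tumor and VP replicate 3 lay above 2 of them. The means were 771 ± 107 TPM (SD, n = 3) and 655 ± 166 TPM (SD, n = 3), a ratio of 0.849. The difference was smaller than the spread within VP. Histone transcripts were 0.0528% to 0.0893% of all TPM of a tumor.

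Of the 5 types, the summed H3 genes did not overlap between genotypes. These genes, which encode a core histone with a heavily modified tail, summed to 33.6, 26.9 and 25.2 TPM in Trp53fl/fl tumors and to 23.1, 19.3 and 20.9 TPM in VP tumors. All VP values were below all Trp53fl/fl values, also under each of 3 other scalings. H3c15 held 7.47, 9.75 and 4.18 TPM of the Trp53fl/fl sums and 2.73, 1.90 and 4.11 TPM of the VP sums. Without this gene the H3 sums overlapped between genotypes. The gap was not set against that of other gene sums. The H4 genes summed to 114, 162 and 149 TPM against 67.7, 95.8 and 147 TPM, with VP replicate 3 inside the Trp53fl/fl range. The H1 genes summed to 121, 177 and 140 TPM against 99.4, 100.1 and 173 TPM, and the H2B genes to 221, 294 and 206 TPM against 129, 185 and 294 TPM. In both types VP replicate 3 again lay with the higher Trp53fl/fl tumors. The H2A genes summed to 241, 232 and 171 TPM against 209, 194 and 209 TPM, and the VP values lay inside the Trp53fl/fl range.

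**Figure D3:**
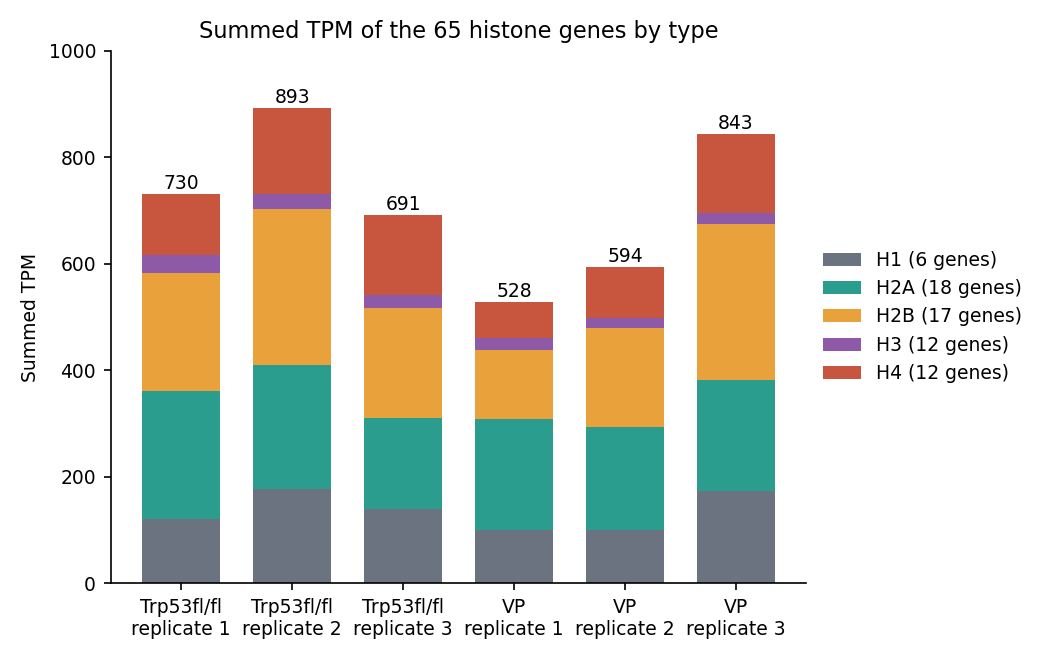
Stacked bars give the summed TPM of the 65 histone genes in each tumor, split into H1, H2A, H2B, H3 and H4. The totals above the bars run from 691 to 893 in Trp53fl/fl tumors and from 528 to 843 in VP tumors, and H3 is the thinnest layer in every tumor.

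The genes lie in 3 clusters. On chromosome 13, 31 of them span 23531050 to 23934851 and 24 span 21715763 to 22043676, and on chromosome 3, 10 span 96219865 to 96270132 (GENCODE M21, GRCm38, joined by gene ID). The 24 genes of the proximal cluster on chromosome 13 summed to 147, 145 and 151 TPM in Trp53fl/fl tumors and to 76.7, 91.5 and 124 TPM in VP tumors. These values did not overlap, also under the 3 other scalings. Of its 15 genes tested, 9 were lower at any p (60.0%, background 60.8%). At an unadjusted p under 0.05, 2 were lower (13.3%, background 8.0%), H4c12 and H4c18, and 0 were higher (background 4.51%). The sums of this cluster had means of 148 and 97.4 TPM, of which the near-identical H4c17 and H4c18 together held 69.8 and 39.5 TPM. The 31 genes further along chromosome 13, which include H2bc4 and H1f2, summed to 387, 515 and 386 TPM against 260, 317 and 515 TPM, and those on chromosome 3 to 196, 233 and 154 TPM against 191, 185 and 204 TPM. Both sets overlapped between genotypes. Without the 4 most abundant genes, the other 61 summed to 244, 244 and 240 TPM against 149, 168 and 229 TPM, without overlap, but VP replicate 3 overlapped the Trp53fl/fl tumors after median-of-ratios rescaling and after quantile normalization.

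Of the 43 genes tested with limma on log2(TPM + 1), 0 differed with an adjusted p under 0.05, against 25 of 15117 genes overall (0.165%). The smallest adjusted p was 0.269, for H4c12. At an unadjusted p under 0.05, 5 were lower in VP tumors (11.6%, background 8.0%) and 1 was higher (2.33%, background 4.51%). Under median-of-ratios rescaling and quantile normalization these became 4 lower and 2 higher. Of the genes first counted, H2bc3 (higher) passed the filter through VP tumors and H2ac7 (lower) through Trp53fl/fl tumors. Every VP tumor was below every Trp53fl/fl tumor for 4 genes (9.30%, background 13.3%) and above for 2 (4.65%, background 6.03%). These shares lie near the background. Without regard to p, 31 of the 43 were lower in VP tumors (72.1%, background 60.8%), and the median log2 fold change was -0.26, against -0.07 for all genes tested. After median-of-ratios rescaling 29 were lower, with a median of -0.21 against -0.0087 for all genes. After quantile normalization 28 were lower, with a median of -0.18 against -0.015. The 60.8% holds for the values as deposited, not for the rescaled ones. The count lower at an unadjusted p under 0.05 changed with single tumors. It was 3 without Trp53fl/fl replicate 1, 3 without VP replicate 2 and 10 without VP replicate 3. The median of the 43 was -0.077 without VP replicate 1. In bulk tumors, fewer cells in S phase and less histone RNA per cell cannot be told apart.

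**Figure D4:**
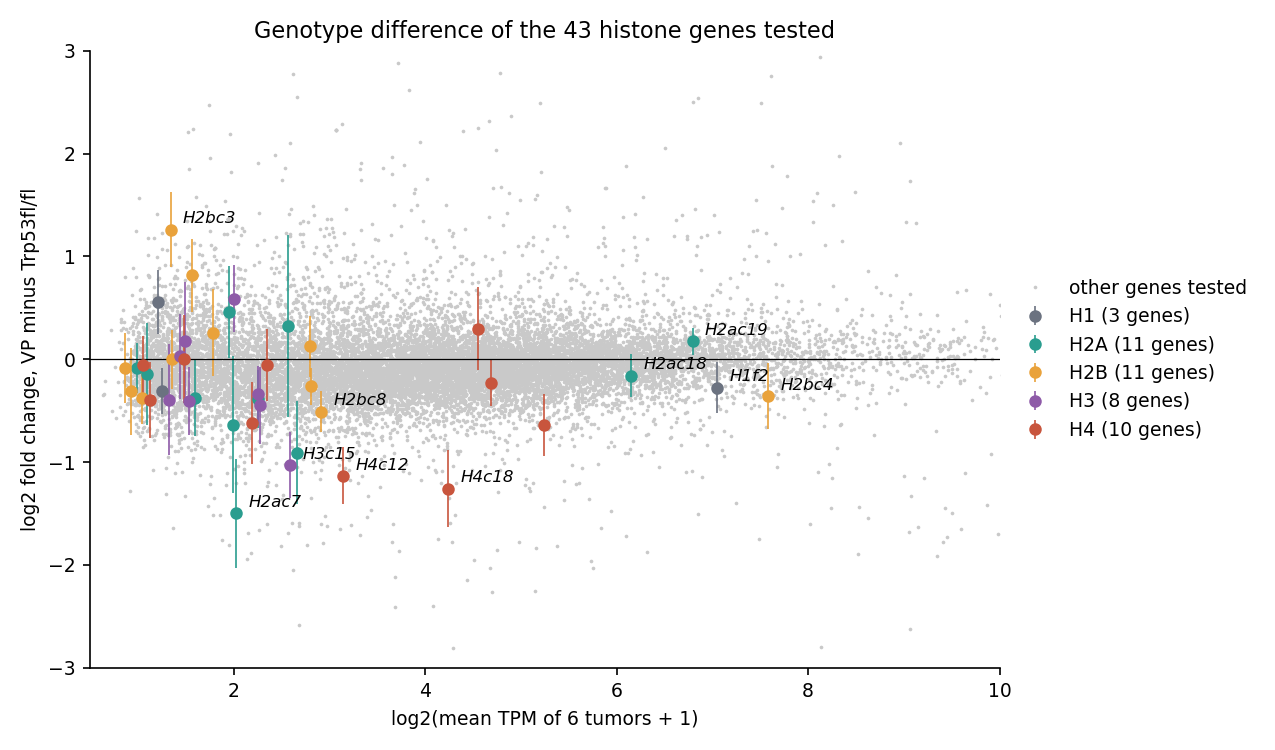
Log2 fold change (VP minus Trp53fl/fl) against log2(mean TPM + 1) for the 43 histone genes tested, colored by type with bars of 1 standard error, over the other genes tested in gray; gray points beyond the axis limits are not drawn. Most histone genes lie within the gray cloud, and the labelled genes have a mean above 50 TPM or an unadjusted p under 0.05.

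Linker histones bind the DNA between nucleosomes. H1f2 (ENSMUSG00000036181, chromosome 13 from 23738808 to 23740367, 1 exon) was at 117, 173 and 136 TPM in Trp53fl/fl tumors and at 95.1, 96.4 and 169 TPM in VP tumors. A pair of VP tumors lay below all Trp53fl/fl tumors and VP replicate 3 lay near the highest (log2 fold change -0.27, standard error 0.25, limma adjusted p = 0.657). No other H1 gene had a mean above 1.37 TPM. H1f5, chosen after its values were seen, was at 1.38, 0.14 and 1.26 TPM against 1.75, 1.62 and 1.73 TPM, all VP tumors above all Trp53fl/fl tumors at a level close to the filter.

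H2A and H2B form the dimers that flank the core of the nucleosome. H2bc4 (ENSMUSG00000018102, chromosome 13 from 23684199 to 23692908) was at 189, 262 and 175 TPM in Trp53fl/fl tumors and at 104, 154 and 257 TPM in VP tumors. The VP tumors spanned a wider range, and the highest was close to the highest Trp53fl/fl tumor (log2 fold change -0.36, standard error 0.32, limma adjusted p = 0.654). H2ac19 (chromosome 3 from 96239749 to 96240276) was at 102, 120 and 88.4 TPM against 118, 110 and 120 TPM, and its copy H2ac18 (chromosome 3 from 96245497 to 96246082) at 78.7, 93.2 and 51.9 TPM against 61.8, 64.9 and 68.1 TPM. All 150-base stretches of each also occur in other transcripts, so the split of reads between them is uncertain. Added together, they were at 180, 214 and 140 TPM against 180, 175 and 188 TPM, and the VP values lay inside the Trp53fl/fl range (log2 fold change 0.04, limma adjusted p = 0.920, an analysis added after the data were seen).

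The remaining H2A and H2B genes had means of 6.51 TPM or less. H2bc8 was at 7.57, 9.0 and 6.79 TPM in Trp53fl/fl tumors and at 3.99, 5.19 and 6.51 TPM in VP tumors. Its groups did not overlap, with a narrow gap (log2 fold change -0.51, standard error 0.20, limma adjusted p = 0.370). H2ac7 was at 8.33, 3.67 and 2.66 TPM against 3.05, 0.32 and 0.32 TPM. Its groups overlapped, and VP replicates 2 and 3 were lowest (log2 fold change -1.50, standard error 0.53, limma adjusted p = 0.344). All Trp53fl/fl tumors reached the 1 TPM of the filter, but of the VP tumors only replicate 1 did. H2bc3, chosen after its values were seen, was at 1.26, 0.30 and 0.00 TPM against 2.31, 3.67 and 1.62 TPM. All VP tumors were above all Trp53fl/fl tumors (log2 fold change 1.26, standard error 0.36, limma adjusted p = 0.303), and it was the gene with the only unadjusted p under 0.05 in that direction. H2bc3 passed the filter through its VP tumors, since of the Trp53fl/fl tumors only replicate 1 reached 1 TPM. Its difference is therefore a description. The H2A genes tested had a median log2 fold change of -0.16 and the H2B genes one of -0.08. The remaining H2A genes named by level, H2ac11, H2ac24, H2ac8, H2ac10, H2ac13 and H2ac4, ranged from 0 to 12.5 TPM in single tumors, and their genotypes overlapped. Of H2B, H2bc21, H2bc11, H2bc7 and H2bc12 ranged from 0.68 to 9.28 TPM with overlapping genotypes.

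H2A and H2B genes often lie head to head. Among the 65, 13 pairs of opposite strands had starts 176 to 306 bases apart, each of 1 H2A and 1 H2B gene. Levels within a pair could differ widely. H2bc4 had a mean of 190 TPM and its partner H2ac6, 251 bases away, one of 0.982 TPM. H2bc8 and H2ac8, 176 bases apart, had means of 6.51 and 3.75 TPM. The H2bc7 levels of 1.82, 1.19 and 2.98 TPM in Trp53fl/fl tumors and 2.02, 1.19 and 5.38 TPM in VP tumors did not follow those of its partner H2ac7, 185 bases away.

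Promoters were matched in RefSeq (GRCm38.p6, 250 bases before to 50 after the start) for 58 of the 65 genes, and each motif was searched on both strands, none of them containing another. CCAAT was in 50 of the 58 (86.2%, against 37.3% of other promoters), namely in all 47 matched genes of the H1, H2A, H2B and H3 types and in 3 of 11 H4 genes. TATAAA was in 34 of 58 (58.6%, against 13.5%), and GGGCGG in 23 of 58 (39.7%, against 35.7%). The octamer ATGCAAAT, known from H2B promoters, was in 7 of 14 H2B genes and 6 of 17 H2A genes and in no gene of the other types (13 of 58, 22.4%, against 1.70%). Windows of head-to-head pairs can overlap, so that 1 match of any motif can count for both genes, as did the octamer of H2ac8 and H2bc8. Shown are an H2B gene with higher values in VP tumors, one with lower values, whose window also holds the start of H2ac8, and an H4 gene with lower values, at chr13:23746484-23746783 (+), chr13:23571150-23571449 (+) and chr13:21832148-21832447 (-). Capitals mark CCAAT, the octamer and TATAAA on either strand. A match is a description of the letters.
H2bc3: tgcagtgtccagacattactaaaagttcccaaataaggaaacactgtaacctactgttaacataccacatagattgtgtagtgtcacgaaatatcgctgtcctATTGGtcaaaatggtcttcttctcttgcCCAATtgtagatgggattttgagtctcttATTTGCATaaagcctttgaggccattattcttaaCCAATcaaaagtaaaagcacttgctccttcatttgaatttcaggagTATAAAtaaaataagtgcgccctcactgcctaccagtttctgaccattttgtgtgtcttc
H2bc8: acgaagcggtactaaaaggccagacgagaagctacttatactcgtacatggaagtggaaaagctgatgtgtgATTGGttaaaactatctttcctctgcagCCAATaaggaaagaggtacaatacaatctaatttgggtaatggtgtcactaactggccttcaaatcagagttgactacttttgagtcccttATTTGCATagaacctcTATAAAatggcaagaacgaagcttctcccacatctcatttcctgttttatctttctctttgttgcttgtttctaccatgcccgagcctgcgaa
H4c18: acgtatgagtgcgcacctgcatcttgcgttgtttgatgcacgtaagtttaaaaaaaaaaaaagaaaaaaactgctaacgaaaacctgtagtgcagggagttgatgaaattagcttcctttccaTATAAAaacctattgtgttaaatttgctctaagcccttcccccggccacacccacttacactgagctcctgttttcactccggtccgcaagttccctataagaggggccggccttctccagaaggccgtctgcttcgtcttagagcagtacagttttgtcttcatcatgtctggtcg

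H2bc3 and H2bc8, which lay on opposite sides of 0, thus both hold CCAAT, the octamer and TATAAA, and the H4c18 window holds TATAAA alone.

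H3 and H4 form the tetramer at the core of the nucleosome. H3c15 (chromosome 3 from 96238108 to 96239127) was at 7.47, 9.75 and 4.18 TPM in Trp53fl/fl tumors and at 2.73, 1.90 and 4.11 TPM in VP tumors. The groups did not overlap, but the lowest Trp53fl/fl tumor and the highest VP tumor lay close together (log2 fold change -1.03, standard error 0.32, limma adjusted p = 0.317). The other H3 genes named by level, H3c3, H3c8, H3c1, H3c4 and H3c11, ranged from 0 to 7.64 TPM in single tumors and overlapped between genotypes, as did H3c2 at 0.29 to 2.82 TPM. The 8 H3 genes tested had a median log2 fold change of -0.37, which was -0.12 without Trp53fl/fl replicate 1.

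Among the H4 genes, 9 of 10 tested were lower in VP tumors at any p (background 60.8%), 8 after median-of-ratios rescaling and 7 after quantile normalization, and 6 without Trp53fl/fl replicate 3 or without VP replicate 1. The 60.8% holds for the values as deposited with all 6 tumors. The median log2 fold change of the H4 genes was -0.31, and -0.26 after either rescaling. H4c12 (chromosome 13 from 21750194 to 21750505) was at 12.1, 14.3 and 7.06 TPM in Trp53fl/fl tumors and at 3.27, 5.59 and 4.44 TPM in VP tumors. The means were 11.1 ± 3.71 TPM (SD, n = 3) and 4.43 ± 1.16 TPM (SD, n = 3), and the groups did not overlap (log2 fold change -1.13, standard error 0.28, limma adjusted p = 0.269). H4c18 (chromosome 13 from 21831767 to 21832196) was at 16.5, 34.6 and 25.3 TPM against 5.43, 11.6 and 13.8 TPM, also without overlap (log2 fold change -1.26, standard error 0.37, limma adjusted p = 0.312). H4c17, 85.8% of whose 150-base stretches also occur in H4c18, was at 38.6, 38.0 and 56.5 TPM against 18.1, 27.6 and 41.9 TPM, and its highest VP tumor lay inside the Trp53fl/fl range (log2 fold change -0.64, standard error 0.30, limma adjusted p = 0.431). Both genes added together were at 55.1, 72.6 and 81.8 TPM against 23.5, 39.2 and 55.7 TPM, which overlapped by a small margin (log2 fold change -0.87, standard error 0.30, limma adjusted p = 0.341, added after the data were seen).

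H4c9 was at 23.1, 31.3 and 24.9 TPM against 17.9, 19.3 and 31.8 TPM (log2 fold change -0.23, limma adjusted p = 0.689). H4c8 was at 11.8, 28.6 and 19.3 TPM against 16.3, 18.9 and 40.3 TPM (log2 fold change 0.30, limma adjusted p = 0.774). In both, VP replicate 3 was the highest of all 6 tumors. H4c2, H4c11 and H4c6 ranged from 0.55 to 7.53 TPM with overlapping genotypes.

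Near-identical sequence limits the reading of single genes. Of the 65 genes, 53 shared at least 1 stretch of 150 bases, the read length, with a transcript of another gene, and in 25 most stretches were shared. Of the 16 such genes that were tested, the median log2 fold change was -0.35 and 4 were lower at an unadjusted p under 0.05 (25.0%, background 8.0%). These 4 were H4c18 (77.2% of stretches shared), H3c15 (59.4%), H2ac7 (59.3%) and H4c12 (53.4%), so their single-gene values above are uncertain. Of the other 27 genes tested, the median was -0.23, with 1 lower (3.70%) and 1 higher (3.70%, background 4.51%). The difference between the 2 sets was not tested. H1f2, H2bc21 and H2ac20 were among the genes that shared none. The highest value among the 6 tumors fell in Trp53fl/fl replicate 2 for 13 of the 43 genes tested, in Trp53fl/fl replicate 1 for 11, in Trp53fl/fl replicate 3 and in VP replicate 3 for 7 each, and in VP replicates 1 and 2 for 2 and 3.

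The proteins and RNAs around histone mRNA were examined as companion lists in the same fit. Of the 15 genes tested for histone mRNA processing, 0 differed with a limma adjusted p under 0.05 (0.165% over all genes), and 2 were lower (13.3%, against 8.0%) and 0 higher (against 4.51%) at an unadjusted p under 0.05 (median log2 fold change -0.17). Slbp, which binds the stem-loop, was at 53.5, 49.1 and 47.9 TPM in Trp53fl/fl tumors and at 45.5, 45.3 and 43.1 TPM in VP tumors. The VP tumors were all slightly lower (log2 fold change -0.16, limma adjusted p = 0.515). Npat, the coactivator of histone gene transcription, was at 6.77, 8.37 and 5.85 TPM against 5.25, 4.89 and 4.52 TPM (log2 fold change -0.43, limma adjusted p = 0.370). Eri1, an exonuclease that acts on the stem-loop, was at 13.2, 14.6 and 13.6 TPM against 10.6, 11.6 and 10.6 TPM (log2 fold change -0.31, limma adjusted p = 0.370). Neither gene overlapped between genotypes. Ncbp2, a subunit of the cap-binding complex, was at 36.7, 40.2 and 40.0 TPM against 21.5, 38.0 and 32.5 TPM.

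The 11 histone variants listed as replication-independent can give mRNAs with poly(A) tails. They summed to between 2816 and 3266 TPM in Trp53fl/fl tumors and between 2429 and 2694 TPM in VP tumors. These sums lay above those of the 65 replication-dependent genes in every tumor. Since oligo(dT) need not capture both sets alike, this order holds for the captured RNA only. Limma called 0 of the 11, with 3 lower (27.3%, against 8.0% of all genes) and 0 higher (against 4.51%) at an unadjusted p under 0.05 (median log2 fold change -0.32). These were H3f3a, which encodes H3.3 and was at 1054, 1057 and 964 TPM against 768, 733 and 971 TPM; Cenpa, the centromeric H3; and Macroh2a1, a macroH2A. H3f3a overlapped in VP replicate 3. Of 16 histone chaperones, 0 were called, with 3 lower (18.8%, against 8.0%) and 0 higher (against 4.51%) unadjusted (median -0.16). Atrx, a remodeler that works with the H3.3 chaperone Daxx, was at 27.3, 43.2 and 24.1 TPM against 15.8, 16.2 and 15.0 TPM, without overlap (log2 fold change -0.92, limma adjusted p = 0.254). Nap1l1 and Nasp, which carry H2A-H2B and H3-H4, had log2 fold changes of -0.46 and -0.29.

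Of 34 S phase genes, 0 were called, with 1 lower (2.94%, against 8.0%) and 0 higher (against 4.51%) unadjusted. Their median was -0.07, close to that of all genes, and 0.00054 after median-of-ratios rescaling. It changed with single tumors. Without Trp53fl/fl replicate 2 it was -0.21, with 32 of the 34 lower at any p. Without Trp53fl/fl replicate 3 it was 0.08, with 14 lower. Ccna2, cyclin A2, was at 43.3, 44.7 and 47.7 TPM against 35.8, 38.6 and 31.9 TPM (log2 fold change -0.35, limma adjusted p = 0.330). Gins3 and Cdk2 had log2 fold changes of -0.37 and -0.31. Of 18 other RNAs without a poly(A) tail, 16 were found. The 7SL RNAs Rn7s1 and Rn7s2, the RNA of the signal recognition particle, had identical values and were counted as 1 measurement. On that count 5 RNAs were tested, with 0 called (0.165% over all genes), 2 lower unadjusted (40.0%, against 8.0%) and 0 higher (against 4.51%), and a median log2 fold change of -0.68, which is that of 7SL itself. The 7SL RNA was at 143, 134 and 151 TPM against 93.4, 93.9 and 78.8 TPM, without overlap (log2 fold change -0.68, limma adjusted p = 0.114). Scarna2, a guide RNA of Cajal bodies, was at 4.67, 3.97 and 3.10 TPM against 1.71, 2.99 and 1.01 TPM. Rmrp (ENSMUSG00000088088), the RNA of RNase MRP, was at 24.5, 33 and 56.8 TPM against 62.6, 27.3 and 23.8 TPM, and its direction turned under other scalings. The summed level of this list was 200 to 269 TPM in Trp53fl/fl tumors and 159 to 173 TPM in VP tumors, and 7 of its 17 rows were at 0 in all tumors. Whether the recovery of RNA without tails differed between the libraries was not tested.

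**Figure D5:**
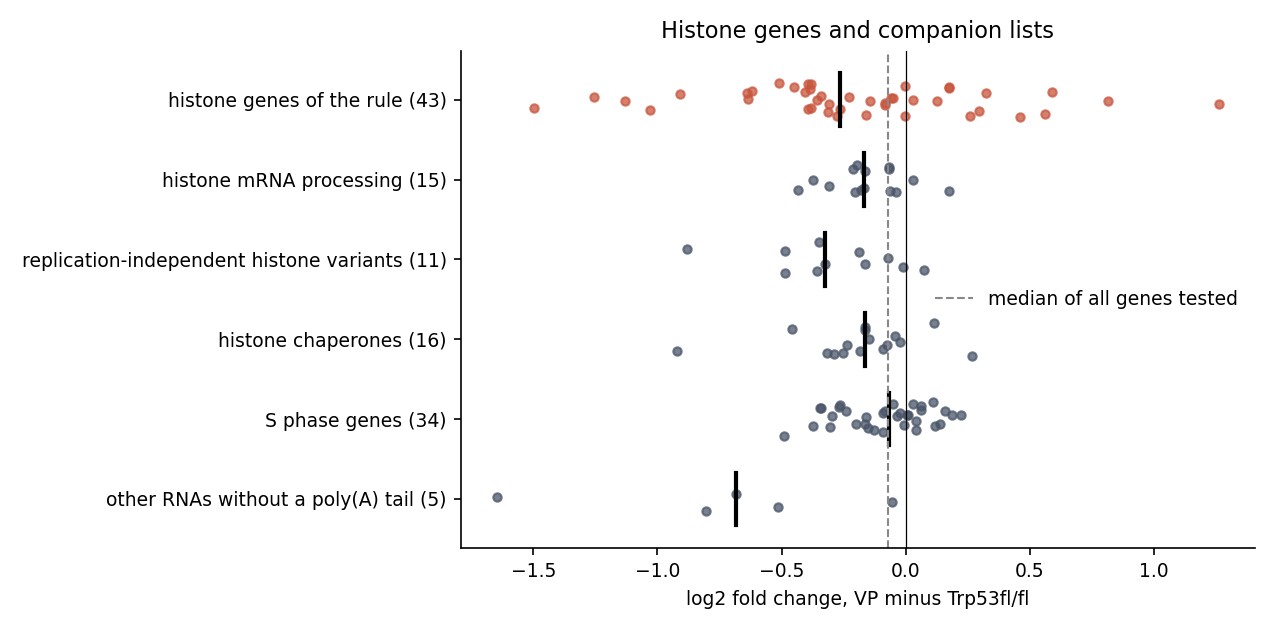
Log2 fold change (VP minus Trp53fl/fl) of each gene tested, for the histone genes and 5 companion lists with the number of genes tested in parentheses; points are jittered upward and downward for visibility. Black bars are list medians, -0.26 for the histone genes and between -0.68 and -0.07 for the companion lists, and the dashed line is the median of all genes tested, -0.07.

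Markers of cell types were summed beside these values. The 12 epithelial markers, all tested, summed to between 10123 and 10463 TPM in Trp53fl/fl tumors and between 11432 and 12416 TPM in VP tumors. Single markers did not all share this direction, since 9 were higher and 3 lower at any p (25.0% lower, background 60.8%). Of the 12, 0 were called (0.165% over all genes), and 3 were higher unadjusted (25.0%, background 4.51%). Their median log2 fold change was 0.06. The 11 neutrophil markers summed to between 367 and 699 TPM against 1176 to 1992 TPM. Of the 9 tested, 9 were higher at any p (0% lower, background 60.8%). Of them, 7 were higher unadjusted (77.8%, background 4.51%), and 1 was called (0.165% over all genes). The 8 mitotic genes summed to between 398 and 529 TPM against 337 to 438 TPM, which overlapped (median log2 fold change -0.11, 0 called). Of them, 1 was lower unadjusted (12.5%, background 8.0%). Summed levels of T cell (36.6 to 49.5 against 27.0 to 46.9 TPM), B and plasma cell (760 to 1062 against 706 to 1184 TPM), macrophage (228 to 247 against 247 to 302 TPM), fibroblast (538 to 592 against 461 to 668 TPM) and smooth muscle genes (351 to 556 against 310 to 850 TPM) were close or overlapped. At an unadjusted p under 0.05, 2 of 5 fibroblast genes were lower (40.0%, background 8.0%) and 1 of 5 macrophage genes was higher (20.0%, background 4.51%). The T cell, B and plasma cell and smooth muscle lists had 0 in either direction. The part of these cell types in the histone values was not tested.

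Of histone genes whose names fall outside the rule, 3 were looked at beside it. H2aw was at 25.1 to 33.6 TPM in Trp53fl/fl tumors and 16.99 to 25.65 TPM in VP tumors, H2bu2 ranged from 15.2 to 34.7 TPM over all tumors, and H4f16 did not exceed 0.35 TPM.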

How the data were processed

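The authors dissected the tumors, selected poly(A) RNA (RNA integrity number above 8, TruSeq kit) and sequenced paired-end reads of 150 bases. Strand is not given in the sources used here, so overlapping antisense genes cannot be separated. The submitters' processing notes name HISAT2, StringTie and mm9. The deposited values are TPM per gene for 6 tumors, computed by the authors without pooling. TPM keep no read counts, so the depth per tumor is unknown, no counting interval was given and no count test was made. The columns sum to between 999964 and 1000067.

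Of the gene IDs, 52093 of 54167 (96.2%) have an entry in GENCODE M21 (GRCm38), from which annotation, stem-loops and shared 150-base stretches were taken. It may differ from the annotation behind the values. Promoters are from RefSeq (GRCm38.p6).

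Genes that reached 1 TPM in 3 or more tumors were tested on log2(TPM + 1), VP minus Trp53fl/fl, with limma 3.58.1 in R 4.3.3 (empirical Bayes with trend, two-sided, Benjamini-Hochberg over 15117 genes). This scale understates changes of low genes. The procedure was tested on simulated data. Sums were described without a test. Tables were handled with pandas 2.3.3 in Python 3.11.15.

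The histone genes and the lists were chosen with earlier results of these data known. Named are the 30 tested histone genes highest by mean TPM, the 3 highest below the filter, H1f6, H2ac1, H2bc1, Trp53, Slbp, the 3 companion genes of each list with the smallest p, and the 3 most abundant other RNAs without a tail. H1f5, H2bc3, H2ac6, H2ac20, H2ac23, H3c2, H4c1 and the genes outside the name rule were chosen after their values were seen. The alternatives were a pseudocount of 0.1, no filter, a minimum of 0.1 TPM in 3 tumors or of 5 TPM on average, rescaling by median of ratios, by quantiles or without mitochondrially encoded genes, a replicate block, no trend in the variance prior, each tumor left out in turn and, added after the data were seen, near-identical copies summed. The 3 tumor samples per genotype, each taken as a different mouse, were compared, and p-values measure the spread between them.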

Additional observations from a re-analysis of the deposited data

How the results depend on the processing

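Under every alternative run, limma called 0 of the histone genes at an adjusted p under 0.05, with the smallest adjusted p between 0.150 (without Trp53fl/fl replicate 3) and 0.474 (without VP replicate 2), and 0 companion genes. The count of histone genes lower at an unadjusted p under 0.05 ran from 3 to 10 when single tumors were left out. The count higher, 1 as reported, was 2 with at least 0.1 TPM in 3 tumors, with median-of-ratios rescaling, with quantile normalization and without trend, was 0 with a mean of at least 5 TPM, and ran from 1 to 2 when tumors were left out. The median log2 fold change ran from -0.18 to -0.32 under the other alternatives and from -0.30 to -0.077 when tumors were left out, against -0.067 for all genes without VP replicate 1. The log2 ratio of the summed TPM, -0.24 as reported, ran from -0.25 to -0.17 and, with tumors left out, from -0.46 to -0.10. Direction was followed for only some single genes. These were histone genes with a mean of at least 10 TPM or an unadjusted p under 0.05, and the named companion genes. Among them, 3 turned. Further weak histone genes turned as well, since 31 of the 43 were lower as reported and 27 without VP replicate 1. H2ac18 ran from -0.40 to 0.021 and H4c8 from -0.089 to 0.59 when tumors were left out, and Rmrp was at 0.0098 after median-of-ratios rescaling, at 0.0035 after quantile normalization and between -0.48 and 0.27 when tumors were left out. The cause was not tested. The count over all genes called moved from 25 to between 6 and 29.

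Replicate numbers are shared by both genotypes, but same-numbered tumors did not deviate together (correlations 0.019, -0.052 and 0.018), so they were taken as names only. With the replicate block, 0 histone genes were called, 5 were lower and 1 higher unadjusted, the smallest adjusted p was 0.180, and 10 genes were called in all. With 3 tumors per genotype and values of a few TPM, differences of the size seen among weak genes were not separable from the spread between tumors.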
